A study of Homo sapiens with 21 samples.

Results

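The 32 genes described here encode proteins that repair broken or crosslinked DNA: the BRCA1 complex and the mediators of homologous recombination, strand exchange factors and motors, end resection factors, the Fanconi anemia pathway, end joining and the mismatch recognition protein MSH6. They were picked by gene symbol, matched through the Ensembl identifiers of the count table. All 32 were found among its 37637 features, and all 32 were among the 17951 features that passed a filter on low counts and were tested. The cells were HepG2, a human hepatocellular carcinoma line, kept for 24 h in caffeine at 0.01, 0.1, 1, 10, 100 or 1000 µM. Controls received the same serum-free DMEM with no caffeine, so every group, control included, had been moved out of serum before the exposure. Each of the 7 groups had 3 cultures, which the study calls biological replicates, and 1 library per culture (21 libraries). Cells were harvested with trypsin, and poly(dT)-selected RNA was copied with a SmartScribe reverse transcriptase. The comparisons ask how the level of each transcript depends on the dose.

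Homologous recombination copies lost sequence from an intact sister chromatid and is used mainly in S and G2 phase. The broken end is first cut back to single-stranded DNA, BRCA1, PALB2 and BRCA2 then prepare it for pairing with the intact copy, and motor proteins drive strand exchange. The Fanconi pathway handles crosslinks between DNA strands by attaching ubiquitin to the FANCD2 and FANCI pair, and end joining seals breaks without a template in all phases of the cycle. Caffeine is known, at high concentration, as an inhibitor of the kinases that signal DNA damage. These statements are textbook background and not results of these data.

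Total counts per library ran from 23502519 to 44815552. By their mitochondrial mRNAs the libraries fell into 3 sets, called A, B and C here, that no label names. In set A, with a mitochondrial share of 9.95% to 14.2%, are 11 libraries: the controls, both lowest doses, and 1 µM replicates 1 and 2. In set B, with a share of 4.72% to 4.95%, are 7: the whole 10 µM group, the remaining 1 µM library (replicate 3), 1 library of 100 µM (replicate 2) and 2 of 1000 µM (replicates 1 and 2). The other 3 make up set C, with a share of 11.8% to 12.8%: 100 µM replicates 1 and 3, together with 1000 µM replicate 3. No control library is in set B or C, and each comparison with control is therefore also given from a fit with the set as a term. Set A meets another set within a dose only at 1 µM, so every value from that fit for 10, 100 or 1000 µM against control rests on 1 library, replicate 3 at 1 µM. The 10 hepatocyte markers checked were present in every library, with ALB at 6110 to 15342 CPM (reads scaled to a common library size). The leukocyte, fibroblast, endothelial and squamous genes PTPRC, COL1A1, COL3A1, CDH5 and KRT5 reached at most 0.249 CPM, while CD68 stood at 18.2 to 71.7 CPM and ACTA2 at 15.2 to 51.1 CPM. Some of these markers differed from control at the high doses. At 1000 µM 6 of the 10 hepatocyte markers were called lower and 2 higher (29.1% and 28.5% of features), with a median log2 fold change of -0.63. ALB was among the lower at -0.98, and CD68 (-0.80) and ACTA2 (-0.98) were both called lower. At 100 µM 4 hepatocyte markers were called lower and 2 higher (22.9% and 23.6% of features), with a median of -0.11. With the set term the counts were 6 and 2 at 1000 µM (19.8% and 18.2% of features), and 3 and 1 at 100 µM (8.21% and 9.14%). Called in both fits were 5 lower and 2 higher at 1000 µM, and 3 lower and 0 higher at 100 µM. Their part in the results for the repair genes was not tested.

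In control cells the Ku subunits stood far above the other repair genes. Per kilobase of exon (GENCODE 29 lengths), XRCC6 measured 124 ± 5.33 CPM per kb (SD, n = 3) and XRCC5 105 ± 14.7 CPM per kb. The next was UBE2T at 12.2 ± 2.92 CPM per kb, and the lowest was FANCM at 0.898 ± 0.170 CPM per kb. Of the 31 pairs of neighbours in this order, 27 overlapped in their control libraries, so most of the order is not resolved beyond the spread. XRCC5 and UBE2T did not overlap. All values below are CPM on TMM-scaled library sizes, and each gene is compared only with itself.

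Most of the 32 transcripts were at their highest at 100 µM caffeine and lower again at 1000 µM. By edgeR's quasi-likelihood test with Benjamini-Hochberg adjustment over all 17951 features (adjusted p under 0.05, the call used throughout), 24 of 32 differed from control at 100 µM, 21 higher and 3 lower, against a background of 46.6% of all features (23.6% higher, 22.9% lower). At 1000 µM 16 differed, 5 higher and 11 lower, against 57.6% of features (28.5% higher, 29.1% lower). The median log2 fold change of the genes was 0.61 at 100 µM and 0.02 at 1000 µM, where the medians over all features were -0.01 and -0.01. The medians of the genes were 0.52 and -0.16 with the set term, so the sign at 1000 µM depends on the fit. A fit of only the 1000 µM and control libraries called 10 genes (50% of features). BRIP1, XRCC3, EXO1 and UBE2T were higher than control at 100 µM and lower than control at 1000 µM. RAD50, FANCC, FANCE and FANCL were higher at both doses, and RAD54B, XRCC4 and LIG4 were lower at both. With the set term, XRCC3 and EXO1 kept both calls of the first pattern, and FANCE kept both calls higher. None of RAD54B, XRCC4 and LIG4 kept both calls lower. The share of all features with each pattern was not counted. In bulk RNA, fewer cells carrying a transcript and less of it per cell cannot be told apart.

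With the library set as a term, 18 genes stayed called in the same direction at 100 µM (17 higher, 1 lower; 17.3% of features, 9.14% higher and 8.21% lower) and 7 at 1000 µM (2 higher, 5 lower; 38.0% of features, 18.2% higher and 19.8% lower). The calls lost at 100 µM were BRCA2, RAD54B, RAD50, FANCC, FANCL and XRCC4. Those lost at 1000 µM were BRCA1, PALB2, BRIP1, NBN, FANCC, FANCL, UBE2T, XRCC5 and LIG4. RAD51C, XRCC3, RAD54B, RAD50, EXO1, FANCE and XRCC4 kept theirs at 1000 µM. Without the term, every 100 µM library lay above every control library for 22 genes (25.8% of features) and below for 4 (25.3%). The 100 µM group had the highest mean of the 7 groups for 22 of 32 genes, against 19.2% of features, and the 1000 µM group had the lowest mean for 13, against 30.8%.

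**Figure D1:**
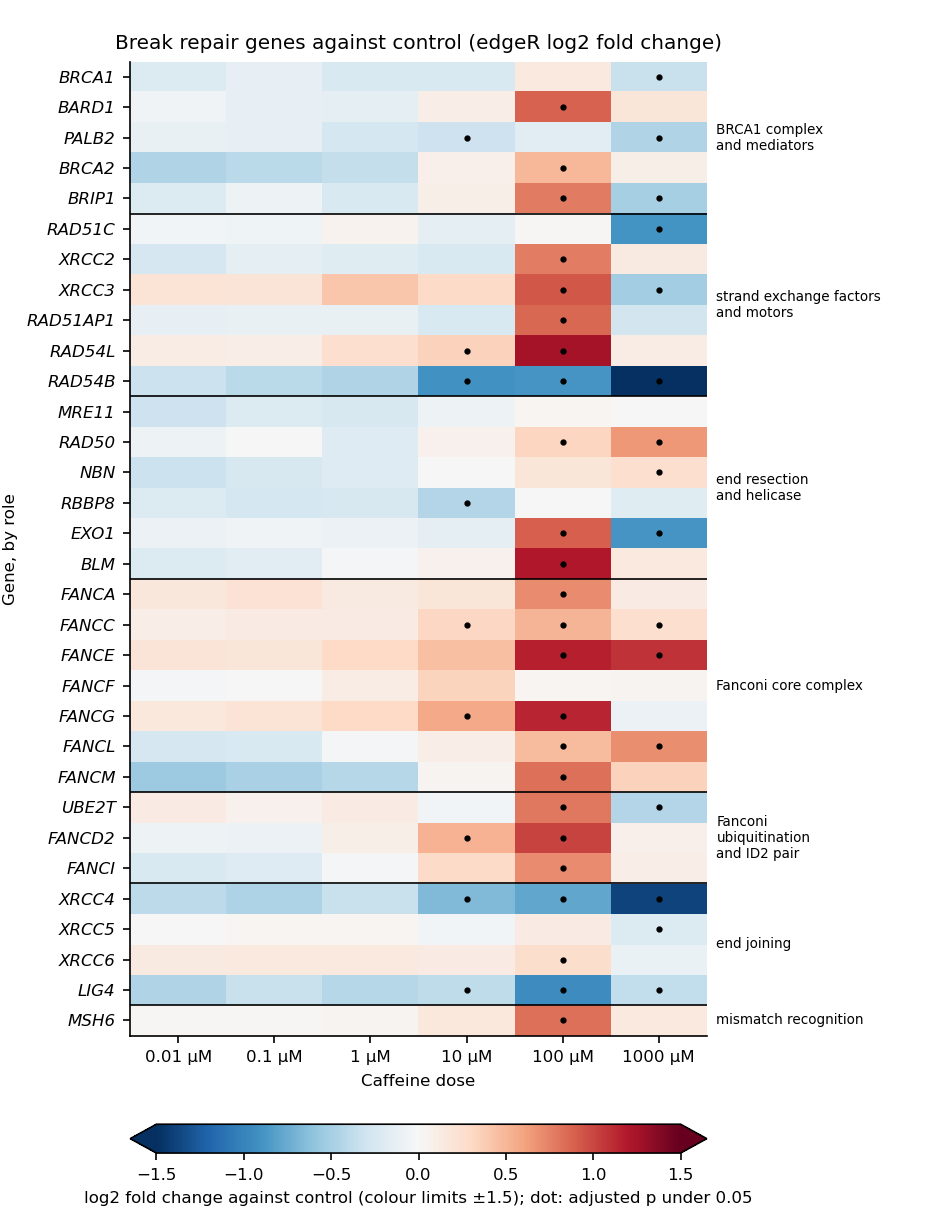
Log2 fold change of each of the 32 genes (vertical axis, grouped by role) at each of the 6 caffeine doses (horizontal axis) against control, from edgeR; red is higher, blue is lower, colours stop at ±1.5 and a dot marks an adjusted p under 0.05. The 100 µM column is red for 21 called genes, and the 1000 µM column has 5 called higher and 11 called lower, with RAD54B at -2.03 beyond the colour limit.

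Promoters were read for 28 of the 32 genes (RefSeq, GRCh38.p14, 250 bases before to 50 after the annotated start). An E2F-type match, spelled TTCCCGC or one of its variants (TTCGCGC first, then TTGCCGC and last TTGGCGC) on either strand, was present in 17 of the 28 (60.7%). The share was 13.0% of all 35116 promoters, 16.1% of 22199 promoters of protein-coding genes and 27.6% of 58 promoters of other break repair genes. It was 78.6% of 14 promoters of S phase marker genes. E2F factors are known as activators of genes used at the start of S phase. CCAAT, on either strand, was in 14 of 28 (50%) against 34.6% of all promoters, and TTTGAA, the CHR element of cell cycle genes, was in 3 (10.7%) against 15.2%. Of the genes called higher at 100 µM, 20 had a promoter in the table and 16 of these held an E2F-type match. BRCA2, RAD50, FANCM and UBE2T were called higher and held none. Among the genes not called higher, 8 had a promoter and 1, FANCF, held a match. The same split was not counted over all features, so it is not read as a result about these genes. These are descriptions of letters in a window, given with no test, and the part of E2F factors in the calls was not tested.

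Sequences are printed on the gene's own strand, with the E2F-type match in capitals. The first pair compares 120 bases just upstream of RAD54L, the gene with the largest log2 fold change at 100 µM in the fit without the set term, with those of RAD51C, a strand exchange factor that was not called there. RAD54L lies at chr1:46247568-46247687 (plus strand) and RAD51C at chr17:58692453-58692572 (plus strand). None of the 3 motifs was found in the whole 300-base window of RAD51C. The same 120 bases of BRIP1, FANCE and FANCM, which were called higher at 100 µM, held no E2F-type match either, and those of FANCC held 1. The pair therefore does not stand for all called and uncalled genes. BRIP1 and FANCE have their match after the annotated start.
RAD54L: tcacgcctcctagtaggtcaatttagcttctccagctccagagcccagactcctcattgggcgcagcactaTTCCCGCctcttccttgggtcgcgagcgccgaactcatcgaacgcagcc
RAD51C: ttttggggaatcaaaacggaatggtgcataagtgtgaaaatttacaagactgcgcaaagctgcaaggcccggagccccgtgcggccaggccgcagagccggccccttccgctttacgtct

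Shorter windows of 27 bases around a match are shown for genes whose levels are described below, so that the spellings can be compared. The first 8 were called higher at 100 µM and FANCF was not. Their positions are, in the order printed, chr15:90717262-90717288 (plus), chr9:35080010-35080036 (minus), chr6:35452346-35452372 (plus), chr3:10026425-10026451 (plus), chr14:103715437-103715463 (minus), chr1:241848199-241848225 (plus), chr17:61863510-61863536 (minus), chr2:47783139-47783165 (plus) and chr11:22625806-22625832 (minus).
BLM: gcctgaggggGCGGGAAcagatgtccg
FANCG: ctcggtggaaGCGGGAAcccaggagga
FANCE: ttccgacagcGCGGGAAcggctgcggc
FANCD2: gtcgggcctgGCGGGAAagtcgaaaac
XRCC3: gagcaggacgGCGGGAAgaggagtgcg
EXO1: aggtcagcctTTCGCGCgctgtgtagg
BRIP1: ggggcgggagGCGGGAAttcgtctcgg
MSH6: ccccccagatTTCCCGCcagcaggagc
FANCF: aagtagggccTTCGCGCacctcatgga

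**Figure D2:**
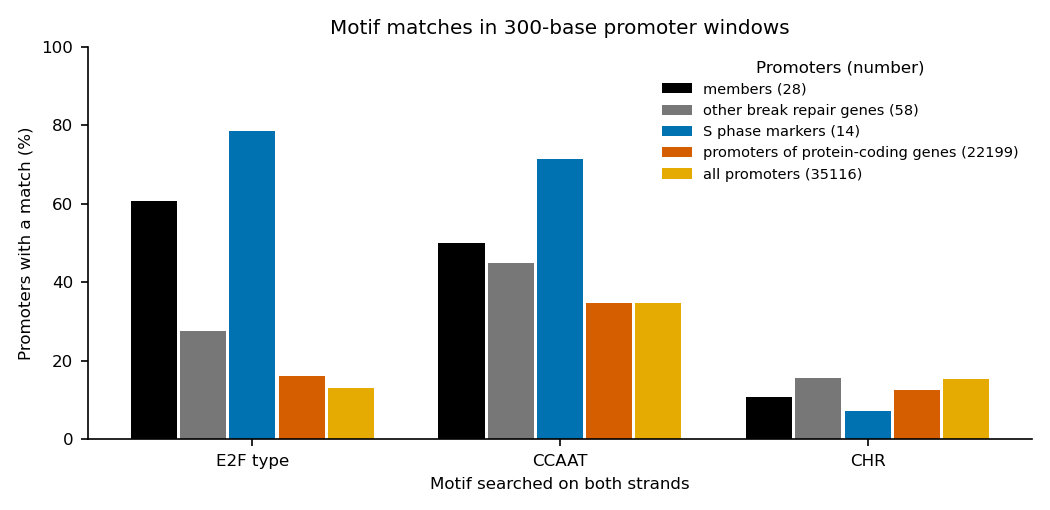
Share of promoters (vertical axis, percent) that hold each motif (horizontal axis) in a 300-base window on either strand; each bar is 1 set of promoters, with its number in the legend. The E2F-type bar of the repair genes stands at 60.7%, between 78.6% for S phase markers and 13.0% for all promoters, and the CHR bars of the repair genes and of all promoters are 10.7% and 15.2%.

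Among the BRCA1 complex and the mediators, 3 of 5 genes were higher at 100 µM (23.6% of features; 2 of 5 with the set term, 9.14%) and all 5 were lower at 1000 than at 100 µM (22.3% of features). BARD1, the partner with which BRCA1 forms a ubiquitin ligase, measured 6.78, 6.59 and 8.24 CPM in control, 13.2, 14 and 12.6 CPM at 100 µM and 9.08, 9.14 and 6.09 CPM at 1000 µM. The 100 µM libraries lay above all the others, and the 1000 µM libraries overlapped control. The log2 fold change at 100 µM was 0.88 ± 0.15 (SE; edgeR adjusted p = 7.09e-05), and from 100 to 1000 µM it was -0.71 ± 0.15 (edgeR adjusted p = 0.000638).

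BRIP1, the helicase that binds BRCA1 (also FANCJ), read 13.6, 13.0 and 17.4 CPM in control, 24.6, 26.0 and 24.9 CPM at 100 µM and 10.5, 11.6 and 9 CPM at 1000 µM. These 3 groups did not overlap: 100 µM was above control and 1000 µM below it. Its log2 fold changes against control were 0.78 ± 0.12 (edgeR adjusted p = 2.18e-05) and -0.50 ± 0.12 (edgeR adjusted p = 0.00144), the latter at adjusted p = 0.074 with the set term. BRCA2, a central mediator of strand exchange, had 20.2, 18.0 and 24.5 CPM in control, 29.2, 32.0 and 27.4 CPM at 100 µM and 24.8, 24.8 and 17.1 CPM at 1000 µM. The 100 µM libraries of BRCA2 again did not overlap either group, with log2 fold changes of 0.50 against control (adjusted p = 0.23 with the set term) and -0.41 from 100 to 1000 µM. BRCA1 itself was not called at 100 µM (0.15 ± 0.096, edgeR adjusted p = 0.206), and at 1000 µM its log2 fold change was -0.34. PALB2, the bridge between BRCA1 and BRCA2, had 38.6, 38.5 and 48.5 CPM in control and 31.4, 28.3 and 31.9 CPM at 1000 µM, without overlap and with a log2 fold change of -0.45.

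**Figure D3:**
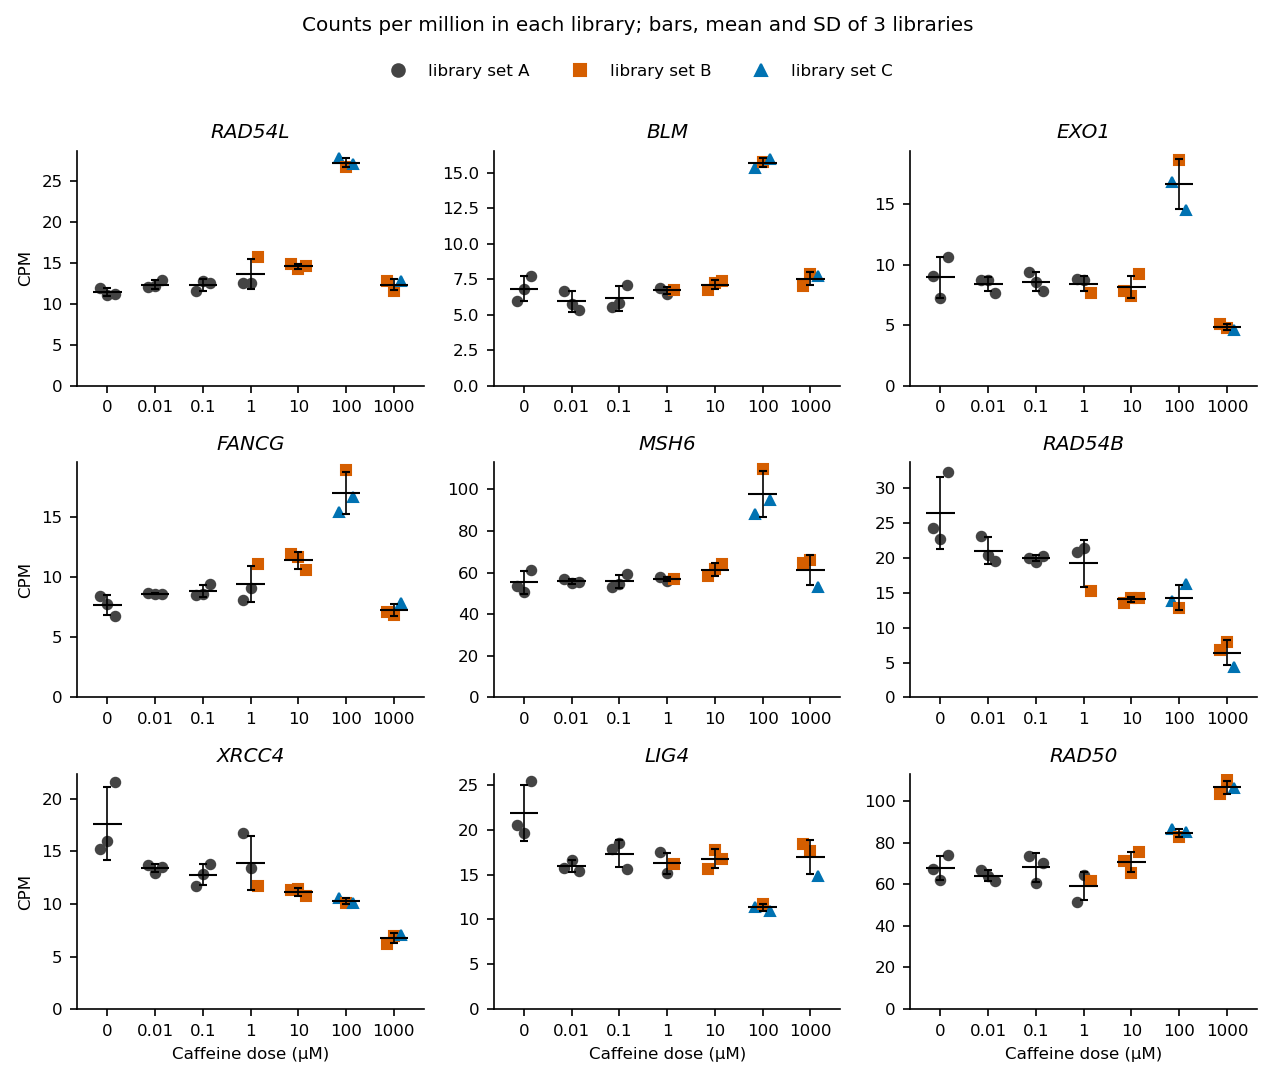
CPM of 9 repair genes (vertical axis, 1 panel per gene, each from 0) in every library by caffeine dose in µM (horizontal axis, evenly spaced); symbols mark the 3 library sets, and bars show the mean and SD of 3 libraries. RAD54L, BLM, EXO1, FANCG and MSH6 stand highest at 100 µM, RAD54B and XRCC4 are lowest at 1000 µM, LIG4 is lowest at 100 µM and RAD50 is highest at 1000 µM.

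Of the strand exchange factors and motors, RAD54L had the largest rise against control among the 32 genes in the fit without the set term (with it, EXO1 had, at 1.22), and RAD54B the largest fall in both fits. RAD54L, a motor that remodels chromatin during strand exchange, read 12, 11.1 and 11.3 CPM in control, 14.9, 14.2 and 14.6 CPM at 10 µM, 27.9, 26.8 and 27.1 CPM at 100 µM and 12.8, 11.6 and 12.8 CPM at 1000 µM. The 100 µM libraries of sets B and C lay together, above every library of every other group. Its log2 fold change was 1.25 ± 0.092 at 100 µM (edgeR adjusted p = 3.66e-09; 0.88 with the set term), 0.11 ± 0.092 at 1000 µM (edgeR adjusted p = 0.318) and -1.14 ± 0.091 between them.

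RAD54B, a related motor, moved the other way. It had 24.2, 22.7 and 32.3 CPM in control, 13.6, 14.3 and 14.2 CPM at 10 µM, 13.9, 12.8 and 16.3 CPM at 100 µM and 6.79, 8.01 and 4.44 CPM at 1000 µM. No 10, 100 or 1000 µM library reached the control range, and the 1000 µM libraries lay below all the others. The log2 fold change was -0.89 ± 0.17 at 100 µM and -2.03 ± 0.18 at 1000 µM (edgeR adjusted p = 1.17e-08). With the set term these were -0.31 (adjusted p = 0.512) and -1.52 (adjusted p = 0.000197). RAD54B shares exons with FSBP on the same strand in GENCODE 29, so reads of the 2 genes may not be told apart in these counts.

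XRCC3, which acts in a complex with RAD51C, read 8.95, 8.57 and 6.29 CPM in control, 13.6, 17.6 and 14.3 CPM at 100 µM and 5.36, 5.21 and 6.05 CPM at 1000 µM. Again the 3 groups did not overlap, with 100 µM highest and 1000 µM lowest. The log2 fold changes were 0.93 ± 0.13 and -0.53 ± 0.14 against control (edgeR adjusted p = 1.2e-05 and 0.00267), and both calls held with the set term. RAD51C, which also belongs to a complex with XRCC2, had 28.0, 30.5 and 37.7 CPM in control, 35.7, 27.2 and 34.5 CPM at 100 µM and 15.2, 15.9 and 20.6 CPM at 1000 µM. Only the 1000 µM group stood apart for RAD51C among these 3, at -0.90 ± 0.13 against control (edgeR adjusted p = 1.1e-05). XRCC2 and RAD51AP1, which stimulates strand pairing, were higher at 100 µM by log2 fold changes of 0.77 and 0.86 and lower at 1000 than at 100 µM by -0.63 and -1.13. Neither was called at 1000 µM against control.

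Of the 6 end resection genes, the nuclease EXO1 and the helicase BLM rose and fell with dose, while the MRE11, RAD50 and NBN complex did not share that pattern. EXO1, which extends resection, measured 9.05, 7.27 and 10.6 CPM in control, 16.8, 18.7 and 14.6 CPM at 100 µM and 5.10, 4.82 and 4.60 CPM at 1000 µM. The groups did not overlap, and the 1000 µM libraries lay below every control library in both sets. Its log2 fold change from 100 to 1000 µM, -1.78 ± 0.14 (edgeR adjusted p = 4.52e-09), was the largest fall among the 32 genes in that comparison. Against control it was 0.90 at 100 µM and -0.88 at 1000 µM, and both were called with the set term, at 1.22 and -0.63.

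BLM, the Bloom syndrome helicase, had 5.96, 6.85 and 7.75 CPM in control, 15.4, 15.8 and 16 CPM at 100 µM and 7.04, 7.87 and 7.75 CPM at 1000 µM. The 100 µM libraries did not overlap any other group, whereas 1000 µM and control overlapped. The log2 fold change at 100 µM was 1.20 ± 0.12 (edgeR adjusted p = 1.26e-07; 1.17 with the set term). RAD50, the ATPase that tethers broken ends, rose at both doses: 67.2, 62.1 and 74.0 CPM in control, 86.6, 82.5 and 84.8 CPM at 100 µM and 104, 110.0 and 106 CPM at 1000 µM. Here the groups rose in steps without overlap, by log2 fold changes of 0.32 ± 0.093 and 0.65 ± 0.093 against control (edgeR adjusted p = 0.0082 and 6.7e-06). Only the 1000 µM call held with the set term, at 0.56. Its partners moved less: NBN was called at 1000 µM alone (0.26) and lost the call with the set term, and MRE11 was not called at 100 µM (0.03 ± 0.11) or at 1000 µM (0.00 ± 0.11). RBBP8 (CtIP), which starts resection, was called at neither dose.

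In the Fanconi core complex, which carries the ubiquitin ligase activity of the pathway, 6 of 7 genes were higher at 100 µM (23.6% of features), and 4 of 7 with the set term (9.14%). FANCE, which links the core to FANCD2, read 4.34, 4.80 and 3.22 CPM in control, 8.36, 9.81 and 9.75 CPM at 100 µM and 8.37, 7.72 and 10.2 CPM at 1000 µM. Both treated groups lay above control and overlapped each other. The log2 fold changes were 1.17 ± 0.16 and 1.08 ± 0.16 (edgeR adjusted p = 6.98e-06 and 8.72e-06), with -0.09 ± 0.15 between the doses (edgeR adjusted p = 0.672).

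FANCG, a scaffold of the core, had 8.5, 7.81 and 6.79 CPM in control, 12, 11.7 and 10.6 CPM at 10 µM, 15.5, 19.0 and 16.7 CPM at 100 µM and 7.12, 6.84 and 7.84 CPM at 1000 µM. The 10 and 100 µM groups stood above control in that order, and the 1000 µM libraries were inside the control range. Its log2 fold change was 1.15 ± 0.12 at 100 µM (edgeR adjusted p = 2.41e-07; 0.83 with the set term) and -1.23 ± 0.12 from 100 to 1000 µM. FANCM, the DNA translocase that anchors the core, measured 7.43, 6.26 and 9.13 CPM in control, 12.3, 14.9 and 13.1 CPM at 100 µM and 10.5, 11.2 and 7.21 CPM at 1000 µM. Of these treated groups, 100 µM lay above control in every library and 1000 µM overlapped it. The log2 fold change at 100 µM was 0.83 ± 0.15 (edgeR adjusted p = 0.000203). FANCL, the catalytic ubiquitin ligase subunit, was higher at 100 µM (0.48) and at 1000 µM (0.70), with adjusted p = 0.634 and 0.0619 under the set term. FANCA and FANCC were higher at 100 µM by 0.71 and 0.51. FANCF had log2 fold changes of 0.03 ± 0.13 at 100 µM and 0.04 ± 0.13 at 1000 µM, and was the only one of the 32 genes not called in the joint test of the 6 doses (edgeR adjusted p = 0.158; 31 of 32 called, against 73.6% of features, and 27 with the set term, against 59.8%).

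The ubiquitin-conjugating enzyme and its substrate pair, 3 genes, all rose at 100 µM (23.6% of features) and were lower at 1000 than at 100 µM (22.3%). FANCD2 had 16.6, 15.8 and 17.8 CPM in control, 30.4, 40.1 and 30.8 CPM at 100 µM and 18.6, 18.9 and 15.1 CPM at 1000 µM. FANCI, its partner in the clamp, read 39.9, 38.5 and 45.9 CPM in control, 61.3, 77.6 and 64.2 CPM at 100 µM and 47.7, 46.7 and 38.3 CPM at 1000 µM. For both genes the 100 µM libraries stood clear of the other 2 groups, the set B library was the highest, and 1000 µM overlapped control. The log2 fold changes at 100 µM were 1.02 ± 0.13 for FANCD2 and 0.71 ± 0.11 for FANCI (edgeR adjusted p = 2.74e-06 and 3.56e-05), and both calls held with the set term. UBE2T, the ubiquitin-conjugating enzyme that works with FANCL, measured 17.0, 17.7 and 25.7 CPM in control, 37.2, 30.2 and 37.0 CPM at 100 µM and 12.1, 13.1 and 19.4 CPM at 1000 µM. At 1000 µM replicate 3 (set C) lay inside the control range and the other 2 below it, with a log2 fold change of -0.44 (edgeR adjusted p = 0.0314; 0.245 with the set term).

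The end joining genes split. XRCC4 and LIG4, which form the ligase complex, were lower than control at 100 µM, and the Ku subunit XRCC6 was slightly higher. XRCC4, the scaffold, read 15.2, 16 and 21.6 CPM in control, 11.3, 11.4 and 10.7 CPM at 10 µM, 10.6, 10.1 and 10.1 CPM at 100 µM and 6.2, 6.91 and 7.09 CPM at 1000 µM. All libraries at these 3 doses lay below control, and those at 1000 µM lay below the rest. The log2 fold changes were -0.78 ± 0.13 at 100 µM and -1.39 ± 0.13 at 1000 µM (edgeR adjusted p = 7.54e-05 and 4.38e-08), against -0.46 (adjusted p = 0.175) and -1.05 (adjusted p = 0.000688) with the set term.

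LIG4, the DNA ligase itself, had 20.5, 19.7 and 25.5 CPM in control, 11.4, 11.7 and 10.9 CPM at 100 µM and 18.4, 17.7 and 14.8 CPM at 1000 µM. Its lowest group was 100 µM, which overlapped neither control nor 1000 µM. The log2 fold change was -0.94 ± 0.11 at 100 µM (edgeR adjusted p = 1.24e-06; -0.82 and called with the set term) and 0.58 ± 0.11 from 100 to 1000 µM (edgeR adjusted p = 0.000286). LIG4 and RAD50 were the 2 genes called higher at 1000 than at 100 µM without the set term, and FANCL was called too with it (0.32, edgeR adjusted p = 0.0323). XRCC6, or Ku70, measured 400.1, 396 and 428 CPM in control, 473, 538 and 463 CPM at 100 µM and 369, 401 and 372 CPM at 1000 µM. Its 100 µM libraries did not overlap the other 2 groups, at a log2 fold change of 0.27 ± 0.071 (edgeR adjusted p = 0.00467). The annotation names 5 pseudogenes of XRCC6, so its counts are uncertain to that degree. XRCC5, or Ku80, was not called at 100 µM (0.13) and was lower at 1000 µM (-0.20), a call lost with the set term.

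MSH6, a subunit of the mismatch recognition complex, had 53.6, 50.9 and 61.4 CPM in control, 88.4, 110.0 and 95 CPM at 100 µM and 64.4, 66.0 and 52.9 CPM at 1000 µM. Every 100 µM library was above every library of the other 2 groups, which overlapped. The log2 fold change was 0.82 ± 0.096 at 100 µM (edgeR adjusted p = 1.31e-06; 1.00 with the set term) and -0.68 ± 0.096 from 100 to 1000 µM (edgeR adjusted p = 1.21e-05).

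The 1000 and 100 µM groups were compared directly, and both doses have libraries in sets B and C. At 1000 µM 26 of 32 genes differed from 100 µM, 2 higher and 24 lower, against 44.0% of features (21.8% higher, 22.3% lower). With the set term 27 differed, 3 higher and 24 lower (46.3% of features, 22.4% higher and 23.9% lower). A fit of set B alone called 27 genes (51.0% of features), but its only 100 µM library has no replicate there and is assumed to vary like the other groups. The median log2 fold change was -0.60, and -0.61 with the set term. Every 1000 µM library lay below every 100 µM library for 24 genes, against 22.9% of features, and above for 2, against 22.2%. Within set B and within set C alike, 25 genes were lower at 1000 µM in all libraries (31.2% of features), and RAD50, FANCL and LIG4 were higher in both (31.3% of features). Without the set term the falls were largest for EXO1 (-1.78), XRCC3 (-1.46), BRIP1 (-1.28), FANCG (-1.23) and UBE2T (-1.23). MRE11, NBN, RBBP8, FANCE, FANCF and FANCL were not called.

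**Figure D4:**
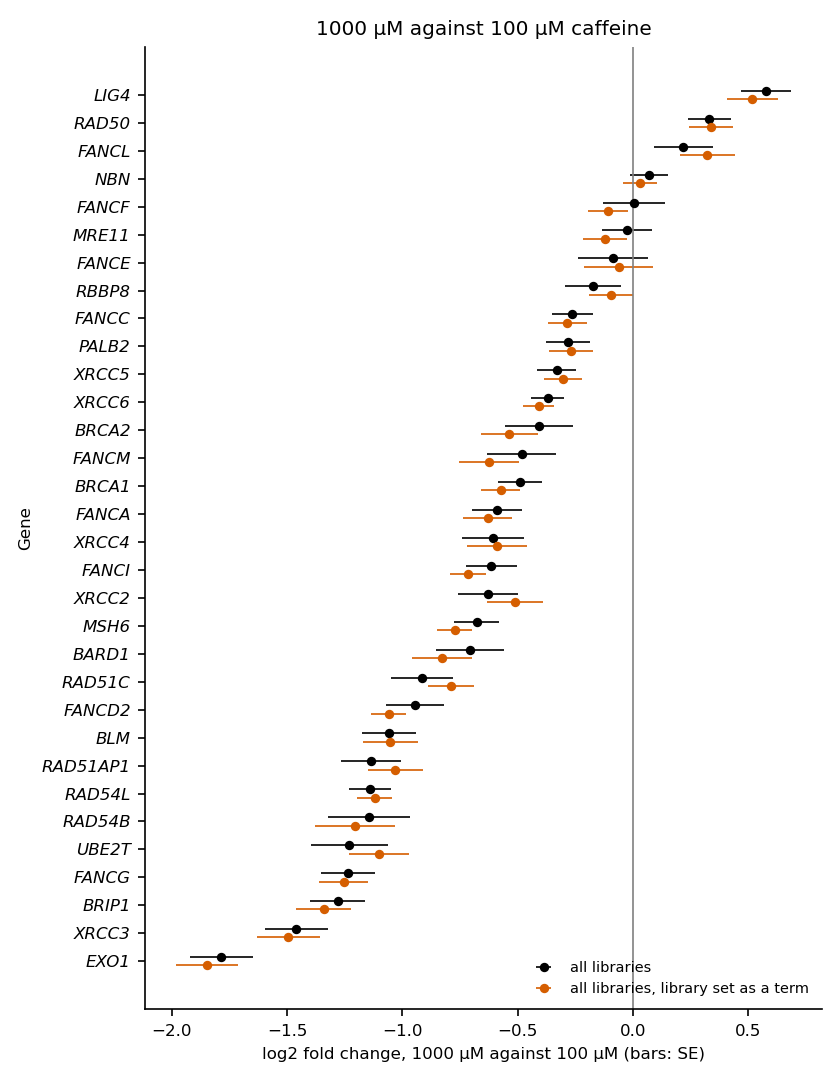
Log2 fold change of each of the 32 genes (vertical axis) at 1000 µM against 100 µM (horizontal axis), with bars for the SE, from the fit of all libraries (black) and the same fit with library set as a term (orange). Most genes lie left of 0, down to -1.78 for EXO1 without the term. LIG4 and RAD50 lie to the right, as does FANCL, which was called only with the term, and the set term moves the points little.

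At 100 against 10 µM, a comparison added after the data were seen, 22 genes differed, 21 of them higher, against 34.4% of features (17.8% higher, 16.6% lower). LIG4 was the gene that was lower, at -0.56. The set term gave 21 (28.7% of features) and a fit of set B alone 24 (33.2%), where 100 µM again has only 1 library, assumed to vary like the other groups. At 1000 against 10 µM 15 differed, 5 higher and 10 lower (52.1% of features, 26.1% higher and 26.0% lower), and 17 with the set term (59.1%), with RAD54B at -1.12, RAD50 at 0.59 and FANCE at 0.63 without it. The comparisons of 100 µM with control, 10 and 1000 µM share the 100 µM libraries and are not independent of one another. The slope of log2 expression on dose rank was called for 20 genes, 15 rising and 5 falling (55.3% of features, 29.6% rising and 25.7% falling), and with the set term for XRCC4 alone (4.27%), at -0.17 per dose step. For 7 of the 15 genes with a rising slope (BARD1, BRCA2, RAD54L, FANCG, FANCM, FANCD2 and FANCI) the slope took the opposite sign with the set term, none of them called, so no direction over dose is given for them.

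At 10 µM 9 genes were called, 4 higher and 5 lower, against 14.8% of features (7.27% higher, 7.49% lower), and no gene with the set term (0.0279%), where 1 of the 32 had an unadjusted p under 0.05, against 4.94% of features. The count was 5 without control replicate 3 (10.4% of features), 4 without 10 µM replicate 1 (5.63%) and 3 without 10 µM replicate 3 (6.98%). Those higher were RAD54L (0.35), FANCC (0.31), FANCG (0.57) and FANCD2 (0.52), and those lower were PALB2 (-0.31), RAD54B (-0.91), RBBP8 (-0.44), XRCC4 (-0.66) and LIG4 (-0.38). At 10 µM FANCC read 15.2, 15.2 and 16.9 CPM against 12.9, 13.1 and 12 CPM in control, with no overlap. RBBP8 read 38.0, 38.1 and 39.8 CPM, below its control libraries at 50.6, 47.8 and 58.8 CPM. PALB2 had 33.2, 33.7 and 34.3 CPM and LIG4 15.7, 17.8 and 16.8 CPM at this dose, in each case below every control library. All 10 µM libraries are in set B and all control libraries in set A. At 1 µM the set B library lay beyond both set A libraries, in the direction of the 10 µM call, for 7 of the 9 genes. PALB2 and LIG4 were the others. The same count was not made over all features, so it is not read as a result about these genes. The part of the library set in these calls was not tested. FANCD2 had 16, 15.6 and 21.5 CPM at 1 µM, where the last is the set B library, and 23.6, 22.3 and 25.7 CPM at 10 µM. RAD54B likewise had 20.9, 21.4 and 15.3 CPM at 1 µM, and the 10 µM libraries held at most 14.3 CPM.

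No gene was called at 0.01, 0.1 or 1 µM by edgeR's quasi-likelihood test (0.0279%, 0.0% and 0.106% of features), while 7, 7 and 13 of the 32 had an unadjusted p under 0.05, against 15.0%, 9.48% and 15.7% of features. DESeq2 called NBN and LIG4 lower at 0.01 µM (3.37% of the features it gave an adjusted p), none at 0.1 µM (0.296%) and LIG4 lower at 1 µM (3.65%). With the set term edgeR called BRCA2, NBN, FANCM and LIG4 lower at 0.01 µM (3.02% of features, 2.18% lower). A fit of set A alone, which holds all control and 0.01 µM libraries, called 0 of the 32 at that dose (0.104%). The set term gave no call at 0.1 µM (0.0223%) or 1 µM (0.629%). In that fit 11 and 10 of the 32 had an unadjusted p under 0.05 at 0.1 and 1 µM (15.4% and 17.1% of features). FANCM had 5.58, 5.06 and 4.90 CPM at 0.01 µM, all below the lowest control library at 6.26 CPM. At this lowest dose 9 genes lay below control in all libraries and 4 above, against 13.0% and 10.2% of features.

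A wider list of 69 other break repair genes was counted in the same way. At 100 µM 38 of the 69 differed from control, 22 higher and 16 lower, with a median log2 fold change of 0.06, where 46.6% of all features differed (23.6% higher, 22.9% lower). In the fit with the set term 23 were called, 16 higher and 7 lower (17.3% of features), and 18 genes were called in both fits in the same direction. At 1000 against 100 µM 42 differed, 11 higher and 31 lower (21.8% and 22.3% of features), with a median of -0.23. Among the genes of the list with a mean of at least 5 CPM, and in the fit without the set term, the largest rises at 100 µM were RMI2 (1.85), a BLM partner, FAN1 (1.65), a nuclease recruited by ubiquitinated FANCD2, and POLQ (1.43), the polymerase of theta-mediated end joining. The largest falls there were the helicase MCM9 (-0.75), the recombination cofactor SWI5 (-0.62) and the helicase HELQ (-0.60), the last not called with the set term. That term gave 1.33, 1.72 and 1.90 for RMI2, FAN1 and POLQ, and -0.81, -0.70 and -0.38 for MCM9, SWI5 and HELQ. RAD52 lay below the limit of 5 CPM and was left out of these rankings. It had 1.96, 1.22 and 1.57 CPM in control, 8.62, 8.80 and 8.34 CPM at 100 µM and 10.7, 11.6 and 9.70 CPM at 1000 µM.

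At 1000 µM against control 42 of these other genes differed, 17 higher and 25 lower, where 57.6% of all features differed (28.5% higher, 29.1% lower), and 35 with the set term, 12 higher and 23 lower (38.0% of features). Again among genes with a mean of at least 5 CPM and without the set term, FAN1 (1.92), the shieldin-pathway protein RIF1 (1.28) and the strand exchange factor RAD51D (1.06) were highest, and the nuclease scaffold SLX4 (-1.43), the MUS81 partner EME1 (-1.28) and the histone H2AX (-1.13; -0.57 with the set term) were lowest. Under the same limits, between 1000 and 100 µM the damage kinase ATM (0.88; 0.56 with the set term), the BRCA1 adaptor ABRAXAS1 (0.67) and the shieldin subunit SHLD3 (0.66) rose most, while RMI2 (-2.05), EME1 (-1.42) and H2AX (-1.37) fell most.

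Cell cycle markers moved with the same doses, and their part in the repair gene result was not tested. Of 16 S phase markers, 15 were higher at 100 µM (median log2 fold change 0.86), 13 were lower at 1000 µM (-0.59) and 16 were lower at 1000 than at 100 µM (-1.49). The shares of all features were 23.6%, 29.1% and 22.3%. Their summed level was 1124 to 1173 CPM in control, 1853 to 2137 CPM at 100 µM and 768 to 807 CPM at 1000 µM. GINS2, a subunit of the replicative helicase, showed 1.69, -1.28 and -2.97 in these 3 comparisons. Of 16 mitosis markers, 16 were higher at 100 µM (1.01, against 23.6% of features). At 1000 µM 10 were higher and 1 lower (0.47, against 28.5% and 29.1% of features). At 1000 against 100 µM 14 of them were lower (-0.66, against 22.3% of features), and 13 with the set term (23.9%). Their summed level was 1210.0 to 1428 CPM in control, 2536 to 2626 CPM at 100 µM and 1656 to 1811 CPM at 1000 µM. In the fit with the set term 14 S phase markers were called higher at 100 µM (9.14% of features) and 10 lower at 1000 µM (19.8%, median -0.54). Between these doses 16 were lower (23.9%), and each of these markers was also called without the term. Of the mitosis markers, 15 were higher at 100 µM (9.14%) and 8 at 1000 µM (18.2%, median 0.52) with the term, with none called lower at either dose.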

How the data were processed

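Per the labels, RNA of 21 HepG2 cultures was selected on poly(dT) beads and sequenced. The authors deposited raw whole-number counts per feature. HISAT2, DESeq2 and GRCh38 are named in the submitters' processing notes; the counting tool, annotation, strand setting and versions are not given in the sources used here. Of the 32 genes, 15 have exons that overlap another gene and 6 have named pseudogenes in GENCODE 29, and their counts are uncertain to that extent. The table also holds 21 per-sample columns that no result here reads.

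Counts were filtered by group with filterByExpr (17951 features kept), scaled by TMM and fitted in 1 model of all libraries with edgeR 4.0.16 in R 4.3.3. The quasi-likelihood F-test was 2-sided, with Benjamini-Hochberg adjustment over all tested features at 0.05. SE is the absolute log2 fold change over the square root of F. The p-values set a difference against the spread between libraries within groups, estimated over all 21 libraries. Without the set term, that spread includes differences between library sets at 1, 100 and 1000 µM. Any set difference between 10 µM (set B) and control (set A) falls in the fold change and is not measured by the p-value. The scripts were tested on simulated data. Library sets came from average-linkage clustering of the 13 mitochondrial mRNAs (mean silhouette 0.571 for 3 sets, 0.525 for 2). Exon lengths and gene positions are from GENCODE 29, and 66.5% of the table's Ensembl identifiers have the same version there. Alternatives were DESeq2 1.42.0, its size factors, limma-voom (limma 3.58.1), other filters, Ensembl features only, only the groups compared, the replicate number as a block, the set as a term, sets A or B alone (set C alone was left out, since its 3 libraries leave 1 residual degree of freedom), other dose scales, a prior count of 0.5 and each library left out. The comparison of 100 with 10 µM, and set B alone for 1000 against 100 µM, were added after seeing the data.

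The genes and lists were chosen with earlier results of these data known. Per-library values are given for up to 3 called genes per role with the largest log2 fold change at 100 or 1000 µM, for genes called in opposite directions there and for genes called at 10 µM or less. From the list of other genes, the 3 largest rises and falls per comparison with a mean of at least 5 CPM are named, with up to 2 per marker list. Some results are not reported here.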

Additional observations from a re-analysis of the deposited data

How the results depend on the processing

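The tally of single values covers the calls of the 32 genes in the comparisons between groups and for the slope on dose rank, and the other genes named. Over the alternatives run on them, 4660 values kept direction and call, 210 lost the call in the same direction and 17 changed direction. All 17 are slopes, under the library set as a term or that term with the replicate block. With the set term alone the slope was -0.0182 for BARD1, -0.0627 for BRCA2, -0.0232 for RAD54L, -0.0533 for FANCG, -0.0175 for FANCM, -0.0587 for FANCD2 and -0.0351 for FANCI. With the block added it was -0.0503, -0.0782, -0.0447, -0.0786, -0.0394, -0.0812 and -0.0479 in that order, and -0.0111 for XRCC2, -0.00159 for NBN and -0.0165 for BLM. The set term left uncalled 9 of 9 genes at 10 µM, 6 of 24 at 100 µM, 9 of 16 at 1000 µM, 0 of 26 between 1000 and 100 µM and 19 of 20 for the slope. That term left 0 genes called at 10 µM, 7 at 1000 µM and 1 for the slope, and gave 4 at 0.01 µM. With the set term and the replicate block together, the counts were 3 at 0.01 µM (1.23% of features), 0 at 10 µM (0.0223%), 12 at 100 µM (12%), 6 at 1000 µM (33.7%) and 0 for the slope (0.0501%). For the other break repair genes the set term gave 23 at 100 µM, and with the block 18 at 100 µM and 27 at 1000 µM, against the same shares of features. DESeq2 called 2 at 0.01 µM and 1 at 1 µM. A fit of only the groups compared called 10 at 1000 µM (50% of features), and the slope on linear dose called 13 (56%). The cause of these changes was not tested.

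With 1 library left out, the count stayed at 0 for each of the 3 lowest doses (at most 0.647% of features). It ran from 3 to 10 for 10 µM (5.63% to 19.1% of features), 23 to 27 for 100 µM (38.6% to 49.4%) and 12 to 20 for 1000 µM (50.4% to 59.4%). The other ranges were 23 to 26 for 1000 against 100 µM (34.3% to 50.7%), 12 to 18 for 1000 against 10 µM (44.4% to 53.4%), 19 to 23 for 100 against 10 µM (24.1% to 38.3%), 28 to 31 for the joint test (67.4% to 76.9%) and 18 to 20 for the slope (49.8% to 57.1%). At 10 µM the count was 5 without control replicate 3, 4 without 10 µM replicate 1 and 3 without 10 µM replicate 3. For the other break repair genes the ranges were 36 to 41, 41 to 44 and 39 to 46 at 100 µM, at 1000 µM and between them.

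With the replicate number as a block, the calls numbered 9 for 10 µM (12.7% of features), 24 for 100 µM (45.1%), 16 for 1000 µM (56.6%), 26 for 1000 against 100 µM (42.7%), 28 in the joint test (71.7%) and 19 for the slope (53.3%). Same-numbered libraries deviated together in 1 of 21 pairs of groups (mean r from -0.108 to 0.152), so the numbers were not taken to pair the cultures. Depth limits the lowest genes most, such as FANCE and FANCM, and with 3 cultures per group small changes may go uncalled.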
